A study of Mus musculus with 2 samples.

Results

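Complement is a set of blood and tissue proteins and of receptors on white cells, and 9 of its genes were followed here in myeloid cells sorted from mouse breast tumors. C1qa, C1qb and C1qc encode the chains of C1q, C3 the central component, Cfb factor B, Cfp properdin and C6 a component of the membrane attack complex, while C3ar1 and C5ar1 encode the receptors for the fragments C3a and C5a. These 9 genes were looked up by name, and all 9 were found among the 32285 genes listed in both libraries. They were chosen as a family and not by their values, with earlier results of the same data known.

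Both libraries held GR1+ cells, bound with magnetic beads from tumors of BALB/c mice. Per the labels the mice were aged 6 to 8 weeks and each library pooled 5 of them. The study's own text differs from the labels in the age and in the number pooled. The antibody GR1 binds Ly6G of neutrophils and Ly6C of monocytes. The 4T1P library came from the parental 4T1 breast carcinoma line, whose tumors are labelled non-responding, and the 4T1M library from a mutagenized derivative of the same line, labelled responding (to blockade of PD1). The 4T1M cells arose from exposure of 4T1P cells to a chemical mutagen, so both groups share their origin, and the labels give no treatment of the mice for either. With 1 library per group no test of the groups was possible. All intervals below are 95% intervals that cover counting error only, exact except for a difference of shares. They say nothing of the spread between mice, tumors or preparations. Intervals of levels and ratios treat each UMI as a separate draw, so they leave out the spread between cells too. Where few cells hold many of the UMIs, as in small sets of cells, such intervals are too narrow.

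C1q binds antibody complexes and dying cells and starts the classical pathway. C3 is cut by every pathway, factor B builds the enzyme that amplifies the cutting of C3, and properdin holds that enzyme together. The fragments C3a and C5a attract and activate myeloid cells through C3ar1 and C5ar1, and C6 belongs to the late components that form a pore. Tissue macrophages are a main source of C1q, whereas the liver makes most of the C3, factor B and C6 in blood. Neutrophils are known to store properdin and to respond strongly to C5a.

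The libraries held 2947 (4T1P) and 5004 (4T1M) barcodes with 21855657 and 24303957 unique molecular identifiers (UMIs, counted transcripts) in all. Barcodes with 500 to 5000 genes and no more than 10% mitochondrial UMIs were retained, which left 1726 and 3461. Neutrophils were the cells in which S100a8 and S100a9 made up at least 1.5% of the UMIs and Csf1r, Cd68 and Adgre1 together less than 0.1%. This gave 590 (4T1P) and 1680 (4T1M) neutrophils with a median of 3124 and 2984.5 UMIs per cell. Macrophages were the cells under 1.5% of S100a8 and S100a9 in which Csf1r, Cd68, Adgre1, Lyz2 and Fn1 made up at least 0.3%. These were 756 and 876 cells with a median of 10130.5 and 10023 UMIs. Markers outside the rule bore the names out, since the mannose receptor Mrc1 stood at 673 and 349 CPM (UMIs of a gene per 1000000 UMIs of the class) in macrophages against 12.6 and 19.5 CPM in neutrophils, and Retnlg at 7586 and 5485 CPM in neutrophils against 25.9 and 38.6 CPM in macrophages. Cd14, listed among the macrophage markers, went the other way, at 1289 and 1305 CPM in macrophages against 3102 and 2947 CPM in neutrophils. The libraries shared 5 barcodes, of which 3 were retained. All levels below are CPM over the summed UMIs of a class in a library.

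The family was split between macrophages and neutrophils. Of the 9 genes, 7 were over 1.5-fold higher in macrophages than in neutrophils in both libraries and 2, C3 and C5ar1, over 1.5-fold higher in neutrophils. By the same rule 57.8% of the 10380 genes tested were higher in macrophages and 13.5% in neutrophils, so that the counts are a description of the members and not a feature of the family. Genes entered this count with at least 50 UMIs over the classes and libraries compared. The excess of macrophages was 4.85 to 5.15 on the log2 scale for the C1q chains in 4T1P and 4.09 to 4.22 in 4T1M. For C3ar1 it was 5.35 (4.68 to 6.10) and 3.83 (3.57 to 4.10), and for Cfb 5.28 (4.16 to 6.74), on 6 neutrophil UMIs, and 4.19 (3.88 to 4.52). Properdin was at 1.58 (1.35 to 1.82) in 4T1P and 1.54 (1.36 to 1.73) in 4T1M. C6, with 1 and 13 UMIs in neutrophils, is given no size.

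These sizes depended on which barcodes were called neutrophils. Without the barcodes of the highest doublet scores the excess of C1qa was 5.66 in 4T1P and 5.03 in 4T1M. Under a stricter neutrophil gate, with S100a8 and S100a9 at 3% or more and no UMI of Csf1r, Cd68 or Adgre1, it was 5.83 (5.46 to 6.21) and 5.44 (5.25 to 5.65). The excess of C3ar1 was then 6.83 (5.28 to 9.11) and 5.77 (5.02 to 6.65). The stricter gate thus left the intervals of the libraries overlapping for the C1q chains and C3ar1, which lay apart before, and turned the order of the libraries for Cfb (5.19 and 5.68) and Cfp (1.51 and 1.70). No order of the libraries is read from the excess.

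**Figure D1:**
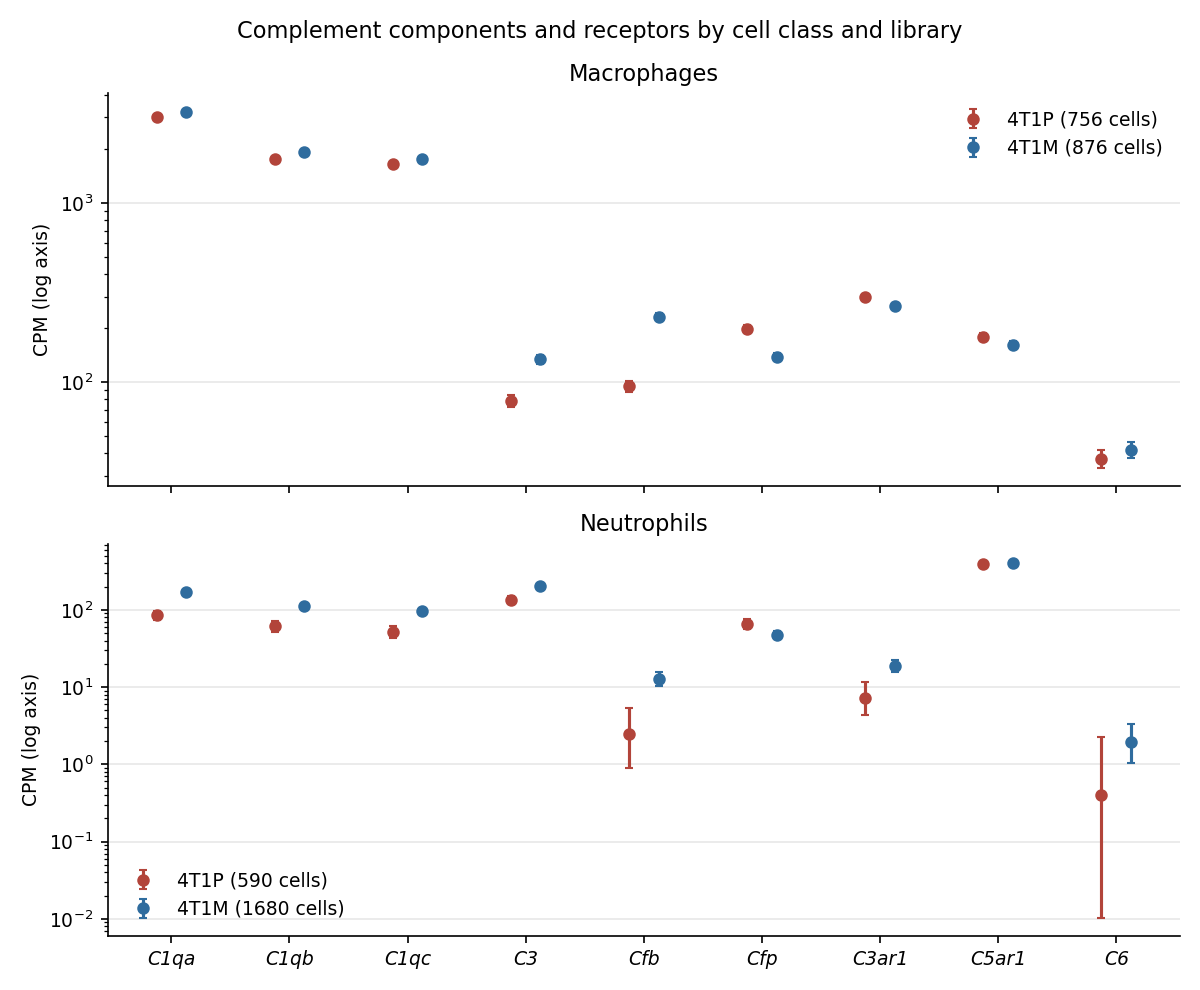
Level of the 9 complement genes in macrophages (upper panel) and neutrophils (lower panel), in CPM on a log axis, for 4T1P (red) and 4T1M (blue), with bars for the 95% counting interval. The C1q chains stood at 1654 CPM or more in macrophages of both libraries, while in neutrophils C5ar1 was highest, at 398 and 403 CPM, and C6 rested on 1 and 13 UMIs.

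The C1q genes were by far the most abundant of the family. C1qa lies at chr4:136895917-136898803, C1qc at chr4:136889804-136893065 and C1qb at chr4:136880129-136886187 (GRCm38), next to one another on the minus strand and with up to 3 exons each. In macrophages C1qa stood at 3008 CPM in 4T1P and 3204 CPM in 4T1M, C1qb at 1757 and 1910 CPM, and C1qc at 1654 and 1756 CPM. A C1q molecule needs all 3 chains, and their proportions hardly moved. C1qa made up 46.9% (46.4 to 47.3) of the C1q UMIs of 4T1P macrophages and 46.6% (46.2 to 47.0) of those of 4T1M, C1qb 27.4% and 27.8%, and C1qc 25.8% and 25.6%.

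Since the 3 genes sit together and were seen together, the sequence around their annotated starts is shown, with C3 for contrast. RefSeq start sites (GRCm38.p6) gave windows of 300 bases, 250 before and 50 after the start, for 7 of the 9 genes, C1qa and Cfb having no entry. The windows are printed 5′ to 3′ along the gene. The capitals ACTTCC mark the reverse complement of GGAAGT, the core bound by the myeloid factor PU.1, in C1qb and C1qc, at chr4:136886151-136886450 and chr4:136892865-136893164. In C3, at chr17:57228087-57228386, the capitals mark a C/EBP match to TTGCNNAA and a TATAAA.
C1qb: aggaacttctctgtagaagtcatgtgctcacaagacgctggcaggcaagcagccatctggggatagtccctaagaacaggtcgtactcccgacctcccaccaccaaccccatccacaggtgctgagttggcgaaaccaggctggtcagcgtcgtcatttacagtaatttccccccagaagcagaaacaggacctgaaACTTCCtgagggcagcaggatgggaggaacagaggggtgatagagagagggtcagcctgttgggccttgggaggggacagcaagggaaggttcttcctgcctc
C1qc: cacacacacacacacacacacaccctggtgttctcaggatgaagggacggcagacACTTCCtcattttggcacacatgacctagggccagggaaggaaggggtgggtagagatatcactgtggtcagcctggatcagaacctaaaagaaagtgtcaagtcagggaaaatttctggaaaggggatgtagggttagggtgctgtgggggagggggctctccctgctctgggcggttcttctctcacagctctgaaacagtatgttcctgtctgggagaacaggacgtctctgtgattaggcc
C3: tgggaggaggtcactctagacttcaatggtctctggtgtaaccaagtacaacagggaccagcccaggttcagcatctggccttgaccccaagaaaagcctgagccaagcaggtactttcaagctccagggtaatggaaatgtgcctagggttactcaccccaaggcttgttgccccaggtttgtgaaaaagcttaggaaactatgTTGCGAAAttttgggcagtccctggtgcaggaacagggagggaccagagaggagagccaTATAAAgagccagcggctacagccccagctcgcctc
The match starts 53 bases before the annotated start in C1qb and 195 bases before it in C1qc, and C5ar1 holds 2 further matches. In C3 the C/EBP match starts 45 bases before the annotated start, and the TATAAA starts after it, at base 15 of the annotated transcript. Both strands were searched, and 3 of the 7 windows held GGAAGT, as did 23.8% of 32851 promoters. The C/EBP letters are in 10.8% of promoters and the TATAAA letters in 13.6%. The interferon-stimulated response element (3.44% of promoters) and the GAS letters TTCNNNGAA (8.30%) were not found in the 7 windows. Such letters are rare and Cfb has no window, so nothing is read from their absence. A kappa B element (1.63% of promoters) was found in C3ar1, as was a TATAAA 235 bases before the annotated start. These matches are descriptions of letters, and binding was not measured.

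Single macrophages differed widely in C1q. Per 10000 UMIs of a cell, the C1q UMIs had a median of 64.1 in 4T1P and 66.7 in 4T1M. The lower quartile was 23.6 and 13.6, the upper quartile 103 and 107, and the highest cell 250 and 260. No C1q UMI was counted in 11.2% and 13.0% of macrophages. After each cell had been thinned at random to 1000 UMIs, 81.8% (78.8 to 84.5) of 731 macrophages in 4T1P and 77.7% (74.8 to 80.5) of 840 in 4T1M kept a C1q UMI. The intervals of these shares overlapped. Their difference was -4.07 percentage points (-8.01 to -0.072), with an approximate interval. All 3 chains were seen in 54.9% and 54.0% of these cells and none in 18.2% and 22.3%. Across macrophages, the log2 levels of the chains correlated at r = 0.83 to 0.86 in 4T1P (756 cells) and r = 0.85 to 0.90 in 4T1M (876 cells), values that share each cell's depth.

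**Figure D2:**
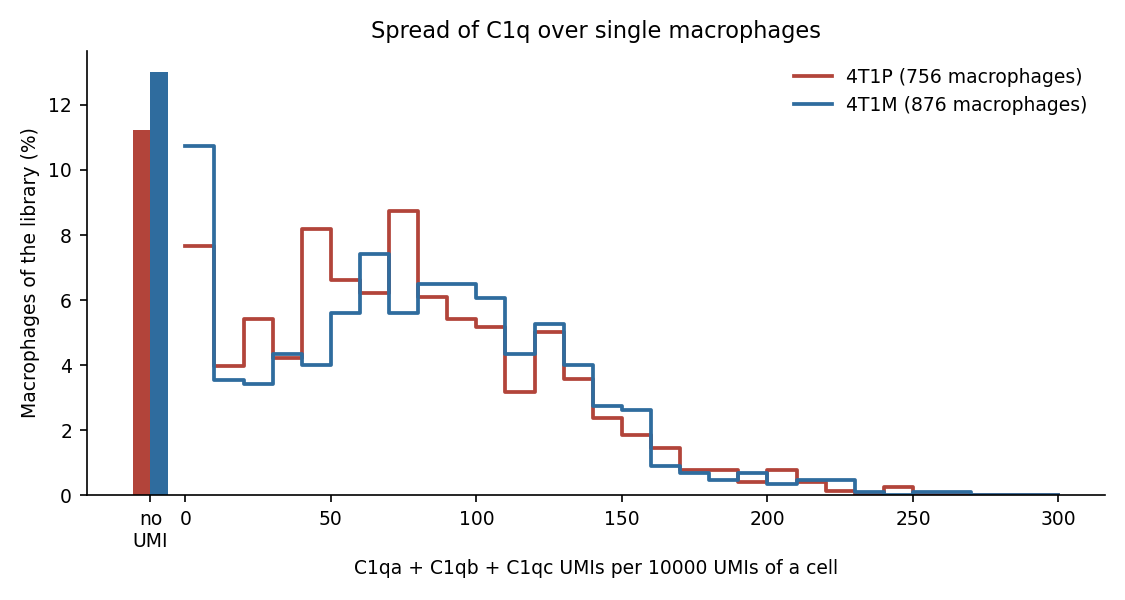
Share of macrophages (y axis, percent of the library's macrophages) by C1q UMIs per 10000 UMIs of the cell (x axis, bins of 10), for 4T1P (red) and 4T1M (blue), with cells lacking a C1q UMI as bars at the left. Both libraries spread from cells without C1q to cells above 200, with medians of 64.1 and 66.7.

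Between the libraries, the macrophage level of C1q differed little, and its direction depended on which cells were called macrophages. The 3 chains together stood at 6419 CPM (6365 to 6473) in 4T1P and 6870 CPM (6816 to 6925) in 4T1M, a log2 ratio of 0.10 (0.08 to 0.11). The chains taken singly gave 0.09 (C1qa), 0.12 (C1qb) and 0.09 (C1qc). In cells that met a stricter gate, with S100a8 and S100a9 under 0.5% and Csf1r, Cd68 and Adgre1 at 0.1% or more, the order turned. There the sum was 8284 CPM in 271 cells of 4T1P and 7710 CPM in 350 cells of 4T1M, a log2 ratio of -0.10 (-0.13 to -0.08).

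In neutrophils C1q was far lower than in macrophages, and in 4T1M most of its UMIs sat in few cells. The chains summed to 485 UMIs or 197 CPM (180 to 215) in 4T1P and to 2577 UMIs or 382 CPM (367 to 397) in 4T1M, a log2 ratio of 0.95 (0.81 to 1.10). Neutrophils with 10 or more C1q UMIs, 8 cells in 4T1P and 32 in 4T1M, held 36.5% and 65.5% of them. Without those cells the level was 128 CPM (114 to 143) and 138 CPM (129 to 148). Those cells were picked by C1q itself, so a fall was built into the rule. No likeness of the libraries is read from it. The macrophage marker list (12 genes) summed to 11911 and 16149 CPM in the cells of 10 or more and to 6103 and 5818 CPM in the others, and their median depth was 7122 and 5318 UMIs against 3101 and 2973. A fixed count of UMIs is reached more readily in deep cells, so part of this difference in depth came from the rule. The barcodes of the highest doublet scores took in 14 neutrophils of 4T1P and 73 of 4T1M. Without them the log2 ratio of 4T1M over 4T1P went from 1.03 to 0.73 for C1qa, from 0.88 to 0.62 for C1qb and from 0.91 to 0.79 for C1qc. With a mitochondrial limit of 5% the chains summed to 207 CPM (187 to 228) in 4T1P and 245 CPM (233 to 258) in 4T1M. Under the stricter neutrophil gate they summed to 117 CPM (98.4 to 139) and 161 CPM (146 to 176). In all neutrophils the macrophage marker list summed to 6240 CPM in 4T1P and 6307 CPM in 4T1M, none of its 12 genes was at 0, and 9 of the 12 were higher in 4T1M. That list holds Csf1r, Cd68 and Adgre1, which the neutrophil rule itself limits.

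Thinned to 1000 UMIs, 14.6% (11.8 to 17.7) of neutrophils in 4T1P and 14.7% (13.1 to 16.5) in 4T1M had a C1q UMI. T cells, which should lack C1q, gave 10.96% (8 of 73 cells, 4.85 to 20.5) and 4.12% (4 of 97 cells, 1.13 to 10.2), with a median of 5605 and 5552 UMIs before thinning, and B cells 6.06% and 3.45%. Unthinned, the share was 34.9% and 32.9% of neutrophils, 26.0% and 25.5% of T cells, and 88.8% and 87.0% of macrophages. The thinned neutrophil share of 4T1P thus lay within the wide interval of its T cells, while that of 4T1M lay above the interval of its T cells but within that of its B cells (1 of 29 cells, 0.0873 to 17.8). By level, T cells stood at 50.6 CPM (32.5 to 75.4) in 4T1P and 53.2 CPM (35.9 to 75.9) in 4T1M, below neutrophils with or without the cells of 10 or more C1q UMIs. B cells stood at 76.5 CPM (40.7 to 131) in 4T1P and 30.7 CPM (12.3 to 63.2) in 4T1M, on 13 and 7 UMIs. The interval of the 4T1P B cells overlapped that of 4T1P neutrophils without the cells of 10 or more C1q UMIs. The chains were in similar proportion to those of macrophages, with C1qa at 42.9% (38.4 to 47.4) and 45.1% (43.2 to 47.1) of neutrophil C1q UMIs.

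Factor B and C3 were the genes of the family that were over 1.5-fold higher in macrophages of 4T1M. Past a 1.5-fold difference, 2 of the 9 genes were higher in 4T1M and 0 lower, where 4.01% of the 9801 genes of at least 50 UMIs were higher and 3.96% lower. The median log2 ratio was 0.09 over the 9 genes and -0.03 over all genes. Cfb (chr17:34856374-34862518) stood at 94.99 CPM (88.5 to 102) in 4T1P and 232 CPM (222 to 242) in 4T1M. This was a 2.44-fold difference, or 1.29 on the log2 scale (1.17 to 1.41). The annotated gene Gm20547 overlaps Cfb on the same strand, and whether this touched the Cfb count was not checked. A Cfb UMI was found in 30.4% of macrophages in 4T1P and 55.7% in 4T1M, and in 6.70% (5.00 to 8.77) and 16.2% (13.8 to 18.9) of the thinned cells. C3 (chr17:57203970-57228136) stood at 78.1 CPM (72.2 to 84.2) and 134 CPM (127 to 142), a 1.72-fold difference or 0.78 on the log2 scale (0.64 to 0.92). Its share of thinned macrophages was 6.43% (4.76 to 8.46) and 11.4% (9.36 to 13.8).

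The cells with Cfb and with C3 overlapped in part. In thinned macrophages, C3 was seen in 14.3% of those with a Cfb UMI and 5.87% of the rest in 4T1P, and in 22.1% and 9.38% in 4T1M. Their levels correlated at r = 0.20 and 0.22. A list of 10 neutrophil markers summed to 759 CPM in macrophages of 4T1P and 1413 CPM in those of 4T1M, with 9 of the 10 higher in 4T1M and none at 0. Most of each sum came from S100a8 and S100a9, which the macrophage rule itself limits. They stood at 239 and 304 CPM in 4T1P and at 470 and 623 CPM in 4T1M. The part of the list in the C3 values was not tested. The stricter macrophage gate, which lowers S100a8 and S100a9, left Cfb at 0.94 (0.78 to 1.10) and C3 at 0.63 (0.43 to 0.83) on the log2 scale. Over the other settings tried, Cfb ranged from 1.27 to 1.65 and C3 from 0.78 to 0.94.

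**Figure D3:**
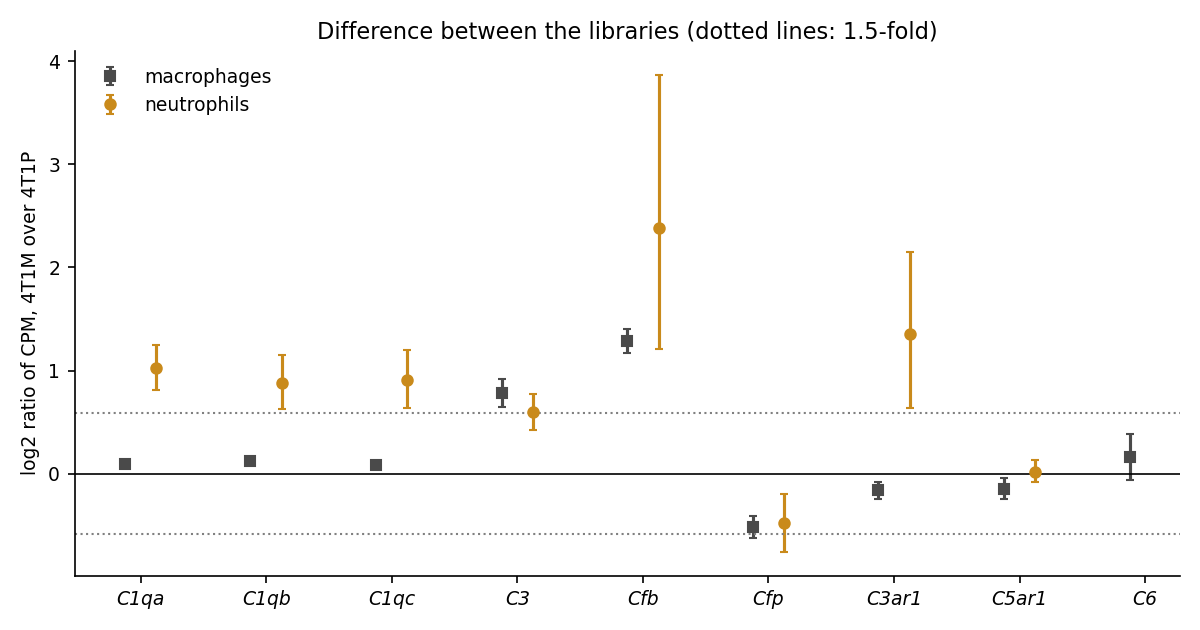
Log2 ratio of CPM, 4T1M over 4T1P, for each gene in macrophages (grey squares) and neutrophils (orange circles), with 95% counting intervals and dotted lines at 1.5-fold; C6 in neutrophils had too few UMIs and is not drawn. Cfb and C3 lie above the upper line in macrophages, and the C1q chains lie above it in neutrophils but near 0 in macrophages.

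C3 was also a neutrophil gene, and was higher there than in macrophages. It stood at 134 CPM (120 to 150) in neutrophils of 4T1P and 203 CPM (193 to 215) in those of 4T1M, a log2 ratio of 0.60 (0.42 to 0.78) that lay just past 1.5-fold and, with edgeR or DESeq2 scaling, short of it. Against macrophages of the same library the log2 difference was -0.78 (-0.98 to -0.59) and -0.60 (-0.71 to -0.49), and with the stricter macrophage gate -0.41 and -0.38. In thinned cells, 12.9% and 16.0% of neutrophils had a C3 UMI. Of thinned T cells, 0 of 73 in 4T1P had a C3 UMI, which allows a share of cells with a UMI of up to 4.11% (3 counts), and 4.12% (4 of 97 cells, 1.13 to 10.2) did in 4T1M. Of all C3 UMIs in a library, neutrophils held 21.6% (4T1P) and 38.7% (4T1M) and macrophages 43.3% and 33.3%.

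Of the 8 genes with enough UMIs in neutrophils, 6 were over 1.5-fold higher in 4T1M and 0 lower, where 12.0% of the 6628 genes tested were higher and 2.66% lower. The median log2 ratio was 0.90 over the 8 genes and 0.07 over all genes. The 6 were the C1q chains, C3, Cfb and C3ar1, and all of them but C3 were higher in macrophages. Leaving out the neutrophils of 10 or more C1q UMIs uses the C1q chains themselves, and Cfb then had too few UMIs to enter. The count was then 2, made up of C3 at 0.60 (0.42 to 0.78) and C3ar1 at 0.88 (0.10 to 1.76) on the log2 scale. Under the stricter neutrophil gate it was 1 higher and 1 lower, C1qc at 0.63 (0.05 to 1.25) and Cfp at -0.72 (-1.13 to -0.29), and C3 stood at 0.45 (0.19 to 0.72). With a mitochondrial limit of 5% it was 2, again C3 and C3ar1.

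Cfb and C3ar1 rested on few UMIs in neutrophils. Cfb had 6 UMIs (2.44 CPM) in 4T1P and 86 (12.7 CPM) in 4T1M, of which 54.7% lay in the 32 neutrophils of 10 or more C1q UMIs. C3ar1 had 18 UMIs (7.31 CPM) and 126 (18.7 CPM), of which 37.3% lay in those cells in 4T1M. C6 had 1 and 13 UMIs, 9 of them in 1 cell, and no ratio is given.

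Properdin was lower in 4T1M in both classes, short of 1.5-fold. Cfp (chrX:20925454-20931555) stood in macrophages at 198 CPM (189 to 208) in 4T1P and 138 CPM (130 to 146) in 4T1M, a log2 ratio of -0.52 (-0.63 to -0.41). In neutrophils it stood at 66.2 CPM (56.4 to 77.2) and 47.4 CPM (42.3 to 52.9), a ratio of -0.48 (-0.76 to -0.20). The intervals of the libraries did not overlap in either class. A UMI was found in 60.1% and 52.6% of macrophages and in 18.5% and 12.9% of neutrophils. In thinned cells the shares were 15.9% (13.3 to 18.7) and 12.7% (10.6 to 15.2) of macrophages. Of thinned neutrophils they were 4.24% (2.76 to 6.19) and 3.22% (2.43 to 4.18). These intervals of the thinned shares overlapped in both classes. In macrophages the 5% mitochondrial limit gave -0.59 and the stricter gate -0.61, and in neutrophils the stricter gate gave -0.72, each past 1.5-fold.

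The anaphylatoxin receptors split between the classes. C5ar1 (chr7:16246743-16259540) was higher in neutrophils, at 398 CPM (373 to 423) in 4T1P and 403 CPM (388 to 419) in 4T1M, than in macrophages, at 179 CPM (170 to 188) and 162 CPM (153 to 170). Its log2 ratio of 4T1M over 4T1P was 0.02 (-0.09 to 0.13) in neutrophils, -0.05 with edgeR or DESeq2 scaling, and -0.14 (-0.25 to -0.04) in macrophages. A C5ar1 UMI was found in 32.0% and 32.4% of thinned neutrophils and in 15.0% and 16.1% of thinned macrophages. C3ar1 (chr6:122847138-122856161) stood at 297 CPM (286 to 309) and 266 CPM (255 to 277) in macrophages, a ratio of -0.16 (-0.24 to -0.08). In neutrophils its 7.31 and 18.7 CPM, on 18 and 126 UMIs, were 1.35 apart on the log2 scale (0.63 to 2.15), the opposite direction.

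C6 was low and was found in a minority of macrophages. Its gene spans chr15:4727175-4814967 on the plus strand with up to 17 exons. It stood at 37.3 CPM (33.3 to 41.6) in 4T1P and 41.6 CPM (37.5 to 46.1) in 4T1M, a log2 ratio of 0.16 whose interval took in 0 (-0.06 to 0.38). Over the settings tried, the ratio ranged from -0.14, with the stricter macrophage gate (67.7 and 61.6 CPM), to 0.58. A UMI was found in 13.4% and 19.4% of macrophages, and in 3.28% (2.11 to 4.85) and 4.40% (3.12 to 6.02) of the thinned cells, with intervals that overlapped. Other components of the late steps had few UMIs, since in macrophages C9 had 1 and 2 UMIs, C8g 8 and 6, and Hc, which encodes C5, 0 and 1.

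Macrophages were next described by sets of marker genes that hold no complement gene, a cell counting for a set with at least 2 of its 1000 thinned UMIs. Sets could overlap, and 18.9% (4T1P) and 11.2% (4T1M) of macrophages fell in more than 1. They were Cxcl9 with Cxcl10 (60 and 77 cells), Thbs1, Mmp12 and Arg1 (395 and 379), Alox15, Prtn3 and Cxcl14 (42 and 24), Lyve1, Cd163 and Folr2 (38 and 11), Cx3cr1 with Vcam1 (43 and 54), and Ly6c2, Ccr2 and Chil3 (100 and 86). The cells of no set were 203 and 314. A rule of at least 4 UMIs was also tried, which left 15 or fewer cells of 4T1P and 19 or fewer of 4T1M in each set other than Thbs1, Mmp12 and Arg1, and 0 cells of 4T1M in the Alox15, Prtn3 and Cxcl14 set.

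C1q and C6 were both highest in the Cx3cr1 and Vcam1 cells. C1q stood there at 10625 CPM in 4T1P and 10528 CPM in 4T1M, against 5285 and 5348 CPM in the Thbs1, Mmp12 and Arg1 cells, which were among the lowest together with the Ly6c2, Ccr2 and Chil3 cells at 5542 and 5420 CPM. The Lyve1, Cd163 and Folr2 cells followed at 8566 CPM (8289 to 8851) and 9893 CPM (9282 to 10534), the latter an interval that overlapped that of the Cx3cr1 and Vcam1 cells (10284 to 10776). With at least 4 UMIs the order of these sets turned in 4T1M, at 9276 CPM (8354 to 10273) in 5 Lyve1, Cd163 and Folr2 cells and 9147 CPM (8490 to 9841) in 8 Cx3cr1 and Vcam1 cells. C6 stood at 185 CPM (153 to 223) and 95.3 CPM (73.4 to 122) in the Cx3cr1 and Vcam1 cells, 55.8% and 44.4% of which had a UMI. In the Thbs1, Mmp12 and Arg1 cells C6 was at 19.2 CPM (15.6 to 23.5) and 24.6 CPM (20.1 to 29.9). These intervals lay apart in both libraries. In 4T1M, however, the interval of the 11 Lyve1, Cd163 and Folr2 cells, at 71.0 CPM (28.5 to 146), overlapped that of the Cx3cr1 and Vcam1 cells. So did that of the 77 Cxcl9 and Cxcl10 cells of 4T1M, at 62.6 CPM (48.5 to 79.6). C6 was lower in 4T1M within the Cx3cr1 and Vcam1 set, with a log2 ratio of -0.96 (-1.43 to -0.51), and higher in the cells of no set, with 0.92 (0.43 to 1.42). With at least 4 UMIs for a set, the cells of no set were at 0.21 (-0.05 to 0.47), an interval that took in 0.

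The excess of Cfb in 4T1M was seen in 7 of 7 sets, the cells of no set included. The log2 ratio ran from 0.52 (0.19 to 0.85) in the Cx3cr1 and Vcam1 cells to 1.83 (1.03 to 2.66) in the Alox15, Prtn3 and Cxcl14 cells. It was 1.58 (1.37 to 1.79) in the large Thbs1, Mmp12 and Arg1 set, where the level was 53.6 CPM in 4T1P and 161 CPM in 4T1M. In the Lyve1, Cd163 and Folr2 cells, 11 in 4T1M, the interval took in 0 (-0.12 to 1.42). With at least 4 UMIs, the Cx3cr1 and Vcam1 cells were at 0.04 (-0.78 to 0.84) and the Cxcl9 and Cxcl10 cells at 0.50 (-0.02 to 1.03). The highest levels were those of the Cxcl9 and Cxcl10 cells, at 199 CPM (169 to 234) and 318 CPM (285 to 354), and of the Cx3cr1 and Vcam1 cells, at 208 CPM (174 to 248) and 298 CPM (258 to 342), with intervals that overlapped in both libraries. In 4T1M the cells of no set, at 292 CPM (273 to 312), overlapped both, as did the Lyve1, Cd163 and Folr2 cells, at 213 CPM (132 to 325). In 4T1P the cells of no set stood lower, at 118 CPM (103 to 135). The Lyve1, Cd163 and Folr2 cells there, at 133 CPM (101 to 173), overlapped the Cxcl9 and Cxcl10 cells but not the Cx3cr1 and Vcam1 cells. They also overlapped the cells of no set and the Ly6c2, Ccr2 and Chil3 cells, at 95.4 CPM (78.5 to 115).

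C3 was higher in 4T1M in 6 of the 7 sets, with intervals above 0, but not in the Cxcl9 and Cxcl10 cells. There it stood at 182 CPM (153 to 215) in 4T1P and 176 CPM (152 to 203) in 4T1M, a log2 ratio of -0.05 (-0.38 to 0.27). This exception turned with at least 4 UMIs, where the Cxcl9 and Cxcl10 cells were at 0.80 (0.03 to 1.62) and the Cx3cr1 and Vcam1 cells at -0.63 (-1.92 to 0.58). In the Thbs1, Mmp12 and Arg1 cells it stood at 48.1 CPM (42.2 to 54.7) and 112 CPM (102 to 123), a ratio of 1.22 (0.99 to 1.45). With at least 2 UMIs for a set, the sets of 4T1P ranged from 38.1 to 182 CPM in C3, and those of 4T1M from 112 to 177 CPM. Cfp was lower in 4T1M in 6 of 7 sets, with intervals below 0 in 3 of them (in 4 of 6 sets with at least 4 UMIs, 3 of them with intervals below 0), and stood at 132 and 135 CPM in the Cx3cr1 and Vcam1 cells. C3ar1 was highest in the Lyve1, Cd163 and Folr2 cells, at 528 CPM (461 to 603) and 507 CPM (376 to 668), against 256 and 226 CPM in the Cxcl9 and Cxcl10 cells. In 4T1P its interval overlapped that of the Cx3cr1 and Vcam1 cells, at 410 CPM (361 to 464). With at least 4 UMIs C3ar1 stood in 4T1M at 251 CPM (121 to 462) in the 5 Lyve1, Cd163 and Folr2 cells, below the 357 CPM (256 to 484) of the Ly6c2, Ccr2 and Chil3 cells.

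**Figure D4:**
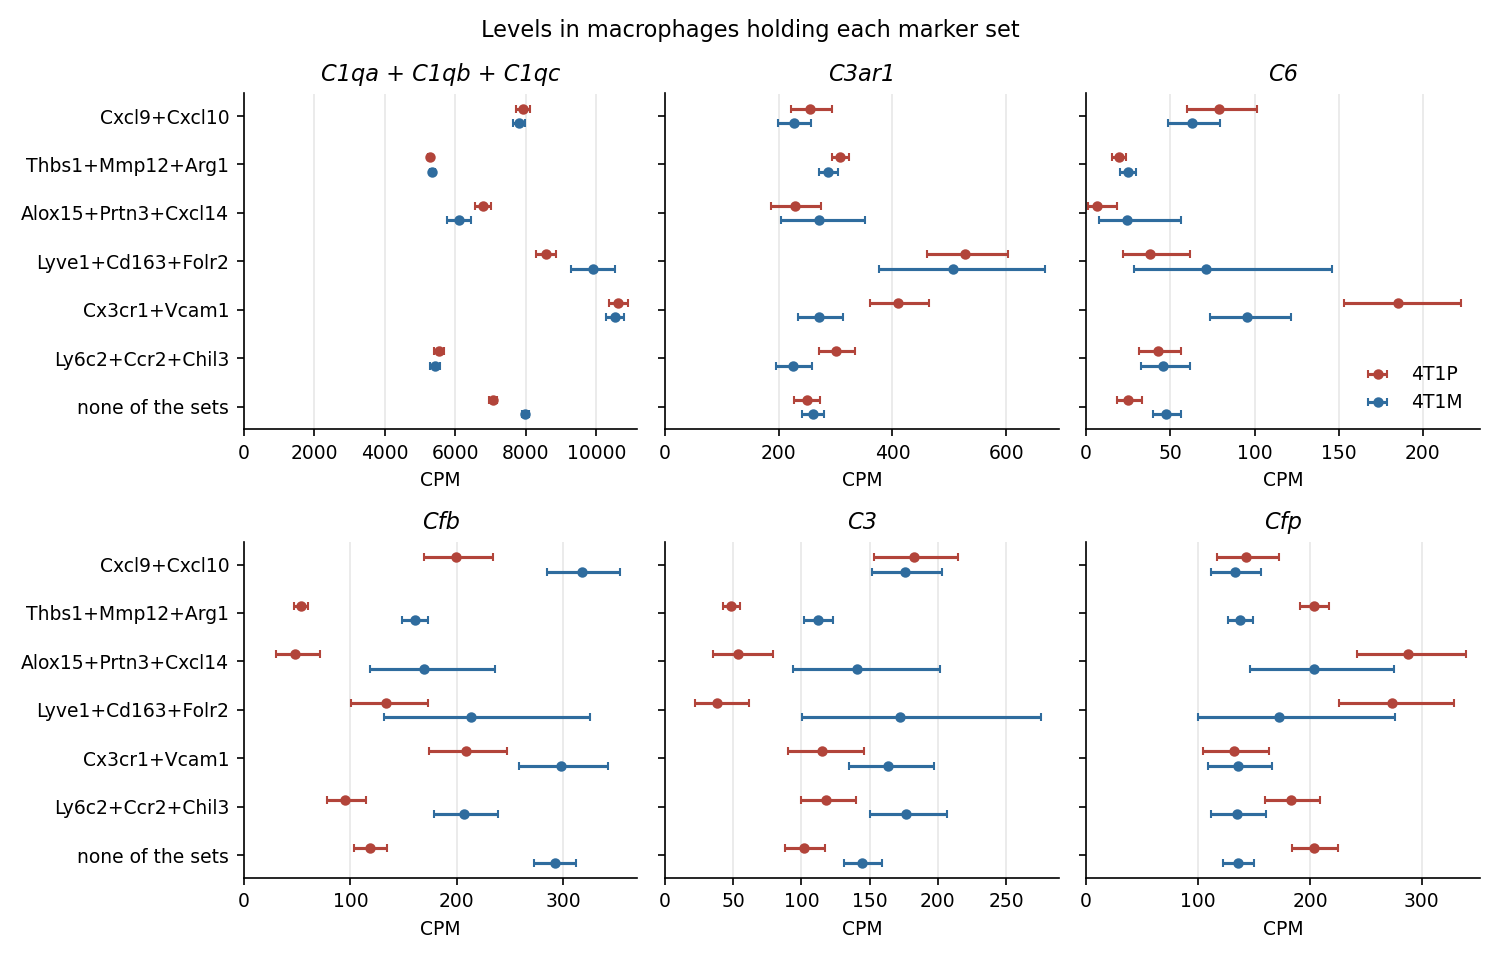
Level in CPM (x axes, from 0) of C1q, C3ar1, C6, Cfb, C3 and Cfp in macrophages holding each marker set (y axis), for 4T1P (red) and 4T1M (blue) with 95% counting intervals. C1q and C6 peak in the Cx3cr1 and Vcam1 cells, and the blue points of Cfb lie to the right of the red in 7 of 7 sets.

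Neutrophil sets were made alike from Camp, Ltf and Ngp, granule genes of immature cells (40 cells in 4T1P and 88 in 4T1M), from Isg15, Ifit1, Ifit3 and Rsad2, induced by interferon (168 and 686), and from Il1a, Tnf and Il23a (121 and 671). The cells of no set were 304 and 549. Here too sets could overlap, and 7.29% (4T1P) and 18.6% (4T1M) of thinned neutrophils fell in more than 1. The library difference in C3 was unlike between the sets. It was 0.01 (-0.30 to 0.34) on the log2 scale in the interferon set, at 168 and 170 CPM, and 0.21 (-0.10 to 0.54) in the Il1a, Tnf and Il23a set, at 204 and 236 CPM. It was 0.93 (0.52 to 1.36) in the Camp, Ltf and Ngp set and 0.93 (0.61 to 1.25) in the cells of no set, where C3 stood at 102 CPM in 4T1P and 193 CPM in 4T1M. With at least 4 UMIs for a set, the Il1a, Tnf and Il23a set was at -0.05 (-0.45 to 0.37), and the others kept their direction. C5ar1 was lowest in the Camp, Ltf and Ngp cells, at 291 CPM (246 to 343) and 316 CPM (281 to 355), and stood between 403 and 458 CPM in the other sets of both libraries. Cfp was highest in the Camp, Ltf and Ngp cells, at 93.2 CPM (68.5 to 124) and 69.7 CPM (53.8 to 88.8), with an interval that overlapped those of the other sets in 4T1P but only that of the interferon set in 4T1M.

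The genes whose log2 level across single macrophages was most like each member are given as a description, over 756 cells in 4T1P and 876 in 4T1M and among 8360 genes, with no test, since the cells share libraries and differ in depth. C1q went with Apoe, the lipid carrier of macrophages (r = 0.59 and 0.63), Lyz2, Gatm, Aif1 and Cd63. Cfb went with the MHC class II genes H2-Eb1 (r = 0.32 and 0.37), H2-Ab1, H2-Aa and H2-DMb1, and with Lgals3bp. C3 went with Ccl5, a T cell attracting chemokine (r = 0.29 and 0.24), Acod1, Ifih1, Malat1 and Malt1. Cfp went with the mannose receptor Mrc1 (r = 0.24 and 0.20), Hsp90b1, Lamp1, Tmbim6 and Calr. C6 went with Selenop (r = 0.32 and 0.32), the fractalkine receptor Cx3cr1 (r = 0.27 and 0.25), Tmem176b, Itm2b and C1qc. C3ar1 went with Iqgap1 (r = 0.38 and 0.36), Atp2b1, Lilr4b, Grn and Fcgr2b, and C5ar1 with Malat1 (r = 0.33 and 0.33), Cflar, Lilrb4a, Lilr4b and Nfkbiz. Lilr4b was in the lists of both receptors, whose own levels correlated at r = 0.29 and 0.24.

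Among 42 other complement genes, 15 had at least 50 UMIs in macrophages, of which 2 were over 1.5-fold higher in 4T1M and 4 lower, beside 4.01% and 3.96% of all genes tested, with a median log2 ratio of -0.13. The higher ones were Itgax, a chain of complement receptor 4, at 61.95 and 93.04 CPM (0.59 on the log2 scale, just past the limit), and C4b, at 32.4 and 55.2 CPM (0.77, 0.55 to 0.98), a gene with a near-identical copy, C4a, so that its count is uncertain. The lower ones were Vsig4, a receptor for fragments of C3, at 28.4 and 5.46 CPM (-2.38, -2.86 to -1.93), Fcna, the lectin ficolin A, at 78.2 and 28.9 CPM (-1.44, -1.65 to -1.23), Cd93 at 142 and 68.5 CPM (-1.05, -1.19 to -0.91), and Cd59a, an inhibitor of the pore, at 4.70 and 2.73 CPM (-0.78, -1.58 to -0.02). Itgam, a chain of complement receptor 3, stood at 567 and 402 CPM (-0.50), short of 1.5-fold. C2, which like Cfb cuts C3, had 6 and 22 UMIs, too few to enter. In neutrophils 12 of the 42 genes had enough UMIs, of which Itgax was over 1.5-fold higher in 4T1M (7.31 and 14.2 CPM) and Cd55 lower (12.2 and 7.85 CPM, interval on the log2 scale -1.31 to 0.06), with a median of 0.19, beside 12.0% and 2.66% of all genes tested.

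**Figure D5:**
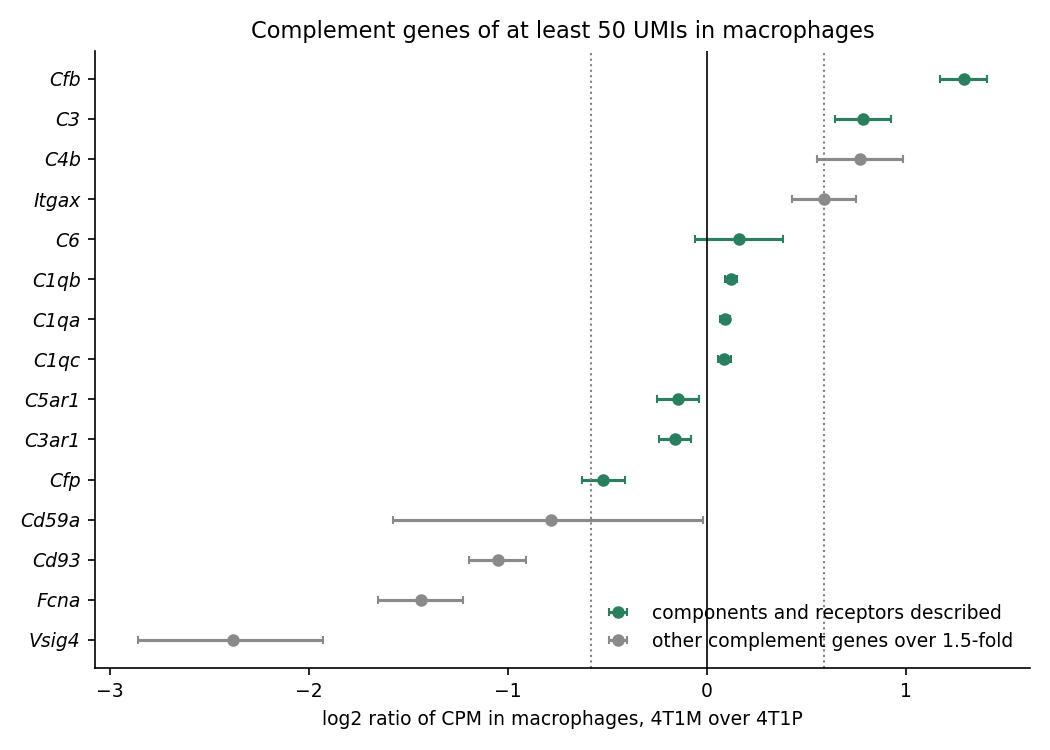
Log2 ratio of CPM in macrophages, 4T1M over 4T1P (x axis), for the 9 genes described (green) and the 6 other complement genes of at least 50 UMIs that differed over 1.5-fold (grey), with 95% counting intervals and dotted lines at 1.5-fold. Cfb is highest at 1.29 and Vsig4 lowest at -2.38.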

How the data were processed

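GR1+ cells of 1 pooled library per group were profiled by 10x Genomics single-cell RNA-seq. The deposited values are UMI counts, which the authors made with Cell Ranger from reads aligned to mm10. The study's methods name GRCm38 with Ensembl 93, a release that was not checked against the deposited gene list. The study's methods also describe a normalization for depth within Cell Ranger, and whether it touched the deposited counts was not checked. The submitters' processing notes name version 4.0.0, and the study's methods a later one. The counts were used as deposited. Of 7951 barcodes, the stated limits left 5187, and the study's methods give a lower number for the same limits. Cells were classed by the gates in the text, and the UMIs of a class were added up within each library. Intervals were exact (Poisson for CPM, Clopper-Pearson for shares, conditional binomial for ratios, scipy 1.17.1). The interval of a difference of shares was approximate, built from the Wilson intervals of both shares. Only the ratio intervals were checked on simulated data, which were Poisson counts. A difference counted past 1.5-fold among genes of at least 50 UMIs. Shares named as thinned used cells thinned to 1000 UMIs (seed 1), leaving out shallower cells, 25 macrophages in 4T1P and 36 in 4T1M. The other shares used unthinned counts. The zero limit was 3 counts. No doublets were removed. A Scrublet run (scanpy 1.11.5) called 1 and 0 doublets, too few to be a working call, so its highest scores (0.8% per 1000 barcodes) were left out as an alternative. Other alternatives were edgeR 4.0.16 TMM factors, DESeq2 1.42.0 size factors, UMI minimums, a 2-fold limit, stricter gates and a 5% mitochondrial limit. Genes most like each member were the 5 with the highest smaller r of both libraries, on log2(1 + UMIs per 10000), among genes seen in at least 5% of macrophages. Gene positions are GENCODE annotation of GRCm38. The named genes were all 9 members, other complement genes of at least 50 UMIs, and the genes most like each member, of which a few are not reported here. Members and lists were chosen with earlier results of these data known, and the setting without neutrophils of 10 or more C1q UMIs was chosen after seeing the data.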

Additional observations from a re-analysis of the deposited data

Results flagged for a closer look

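C1q UMIs were also counted in barcodes that the limits left out, a signal in data the comparisons did not use. The 3 chains summed to 4242 CPM in 136 barcodes of 4T1P and 4782 CPM in 49 barcodes of 4T1M above 5000 genes. In the 420 and 472 barcodes over the mitochondrial limit alone they summed to 2552 and 2194 CPM, and in the 665 and 1022 barcodes under 500 genes to 1162 and 1977 CPM. The barcodes above 5000 genes held 27.1% of all C1q UMIs in 4T1P and 11.6% in 4T1M.

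C3ar1 differed between the libraries in opposite directions in the classes, by -0.16 on the log2 scale (4T1M over 4T1P) in macrophages and by 1.35 in neutrophils. The neutrophil value rested on 18 UMIs in 4T1P and 126 in 4T1M, and 37.3% of the latter lay in the 32 neutrophils of 10 or more C1q UMIs. Under the stricter neutrophil gate 3 and 14 UMIs remained, too few to enter. With 1 library per group the difference between the classes was not tested.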

How the results depend on the processing

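With 1 library per group, a left-out replicate cannot be had, and no paired analysis was possible because each group has 1 library. Of the 9 genes, 7 were higher in macrophages than in neutrophils under each of the 8 settings that bear on it. The 2 genes higher in neutrophils became 1, C5ar1, past 2-fold, with the 5% mitochondrial limit and with either stricter gate. The C1q log2 ratio in macrophages was 0.127 with edgeR and 0.131 with DESeq2 scaling and reversed to -0.104 under the stricter macrophage gate. Past 2-fold, 1 gene was called in macrophages and 3 in neutrophils. In neutrophils 2 were called with the 5% mitochondrial limit, under the stricter neutrophil gate and without neutrophils of 10 or more C1q UMIs, where C1qb reversed to -0.060. The last of these settings removes cells by their C1q UMIs, so it cannot show how the C1q chains differ. Cfb had too few UMIs to enter there, with the 5% mitochondrial limit and under the stricter neutrophil gate. The cause of these moves was not tested.

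Other complement genes called in neutrophils were 6 with at least 10 UMIs and 0 with at least 200 UMIs, past 2-fold and under the stricter gate, and those called in macrophages were 3 past 2-fold. Among all genes, with at least 10 UMIs, 964 were higher and 951 lower in macrophages of 4T1M and 1930 and 855 in neutrophils. With at least 200 UMIs these were 196, 128, 257 and 34, and past 2-fold 126, 94, 249 and 33. The stricter neutrophil gate gave 366 higher. Thinned to 500 or 2000 UMIs, the difference in the share of macrophages with C1q was -2.46 and -4.36 percentage points. With at least 4 thinned UMIs, Cfb was higher in 6 of the 6 macrophage sets that had cells in both libraries. C3 was higher in 3 neutrophil sets, the cells of no set included, but not in the Il1a, Tnf and Il23a set. Depth limits Cfb, C3ar1 and C6 in neutrophils, which rest on 6, 18 and 1 UMIs in 4T1P.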
